A study of Mus musculus with 10 samples.

Results

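The Polo-like kinases are a family of serine/threonine protein kinases, and its 5 mouse members, Plk1 to Plk5, were taken by gene symbol from the 25078 genes of the deposited count table. RNA was sequenced from LSK cells, the Lin- Sca-1+ c-Kit+ fraction of mouse bone marrow that holds stem and early progenitor cells, with 1 library per mouse. The study asked what the loss of the microRNA miR-126 changes in cells that carry the leukemia fusion gene Cbfb-MYH11. The 5 CM mice (Cbfb56M/+/Mx1-Cre) carried the fusion, and 5 CM/miR-126Δ/Δ mice (Cbfb56M/+/miR-126flox/flox/Mx1-Cre) carried it together with the deletion. All 10 mice, backcrossed to C57BL/6, were injected with poly(I:C) at 6 to 8 weeks of age, and cells were collected 6 weeks later at a pre-leukemic stage. The study used both sexes, and the sex of each of these mice is not among the labels used here.

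Both groups thus shared the fusion allele, the Cre and the poly(I:C), and no mouse without the fusion was among the 10. Poly(I:C) induces interferon, which drives Mx1-Cre in LSK cells and in many other cell types, so the deletion was not limited to these cells. The deleted microRNA was read first as a check of the labels: Mir126a had 14 counts in all over the CM mice (4, 5, 0, 2 and 3 counts in mice 1 to 5) and no count in any of the 5 mice with the deletion. Its host gene Egfl7 averaged 114 ± 20.0 CPM (counts per 1000000, SD, n = 5) with the fusion alone and 107 ± 12.2 CPM (n = 5) with the deletion as well, at a log2 fold change of -0.10 (edgeR adjusted p = 0.845).

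In dividing cells Plk1 governs entry into mitosis, spindle assembly and cytokinesis, and Plk4 starts the duplication of centrioles. Plk2 and Plk3 are of another kind: their transcripts are short-lived and are induced by growth factors, stress and DNA damage, much as immediate early genes are. Plk5 lacks kinase activity and is known mainly from brain. In marrow progenitors, Plk1 and Plk4 are thus read as genes of the cell cycle, and Plk2 and Plk3 as genes of the signals a cell has lately received. Plk2 is also one of the transcripts that the study examined as a target of miR-126. It reported more Plk2 transcript and protein with the deletion than with the fusion alone, the transcript by qPCR in pre-leukemic LSK cells.

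The sequences that tie this family to the deleted microRNA are shown first. A microRNA pairs with its targets mainly through bases 2 to 8, the seed. The mature miR-126a-3p of RefSeq (GRCm38.p6, chr2:26591402-26591423, plus strand) is given with the seed in capitals, followed by the stretch of the Plk2 3′ untranslated region (GENCODE M1) whose capitals complement miRNA bases 2 to 7.
mmu-miR-126a-3p: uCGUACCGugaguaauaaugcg
Plk2 3′ untranslated region: cggacaggtggtGGTACGaatacaattc
This 6-base match, GGTACG, lay at positions 126 to 131 of the 620 bases of the longest Plk2 3′ untranslated region. Plk1, Plk3, Plk4 and Plk5 had none in theirs. The same 6 letters stood in 588 of 19915 genes (2.95%), and the complement of the whole seed, CGGTACG, in none of the 5 members and 42 of those genes (0.211%). In Plk2 the base after the match, opposite miRNA base 1, is an a. The share of genes with the match and this base together was not counted. A match is a description of the sequence, not evidence of binding.

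The cell-cycle members were the most abundant and the steadiest from mouse to mouse. Plk1 (chr7:122159435-122169884, mm10, plus strand) had 37.1, 41.5, 42.4, 45.4 and 41.4 CPM in CM mice 1 to 5. In CM/miR-126Δ/Δ mice 1 to 5 it had 44.6, 43.8, 46.1, 41.8 and 43 CPM. The genotypes overlapped, and the highest library was only 1.24 times the lowest. Means were 41.6 ± 2.95 and 43.9 ± 1.6 CPM (SD, n = 5 each), which differed by 0.08 on the log2 scale (SE 0.0631, edgeR adjusted p = 0.765, exact permutation p = 0.167).

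Plk4 (chr3:40799951-40816883, plus strand) gave 60.2, 52.5, 55.8, 55.7 and 50.5 CPM in CM mice 1 to 5. The values in CM/miR-126Δ/Δ mice 1 to 5 were 62.8, 57.9, 50.7, 53.9 and 54.3 CPM. The genotypes overlapped throughout, with the highest library again 1.24 times the lowest. Mean levels of 55.0 ± 3.72 and 55.9 ± 4.61 CPM differed by 0.03 on the log2 scale (SE 0.0674, edgeR adjusted p = 0.945, exact permutation p = 0.714).

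The stress-inducible members ran at lower levels and differed between mice by more than an order of magnitude. Plk2 (chr13:110395044-110400843, plus strand) had 12.4, 37.0, 2.87, 7.8 and 8.95 CPM in CM mice 1 to 5. In CM/miR-126Δ/Δ mice 1 to 5 it had 10.3, 10.5, 0.958, 8.79 and 1.28 CPM. CM mouse 2 was far above all others, and CM mouse 3 with CM/miR-126Δ/Δ mice 3 and 5 lay far below. The 22 counts of Plk2 in CM/miR-126Δ/Δ mouse 3 and the 31 in mouse 5 were still well above 3 counts, taken as the limit of detection, while CM mouse 2 had 1119. In whole LSK cells, fewer cells with the transcript and less transcript per cell cannot be told apart.

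Plk3 (chr4:117128655-117133963, minus strand) followed the same libraries. It had 10.4, 28.6, 3.44, 10.3 and 12.5 CPM in CM mice 1 to 5, and 12, 12, 1.57, 13.6 and 1.98 CPM in CM/miR-126Δ/Δ mice 1 to 5. CM mouse 2 was again the highest, and the 3 lowest libraries were those that were lowest for Plk2, in the same order. The highest library had 38.6 times the lowest for Plk2 and 18.3 times for Plk3.

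**Figure D1:**
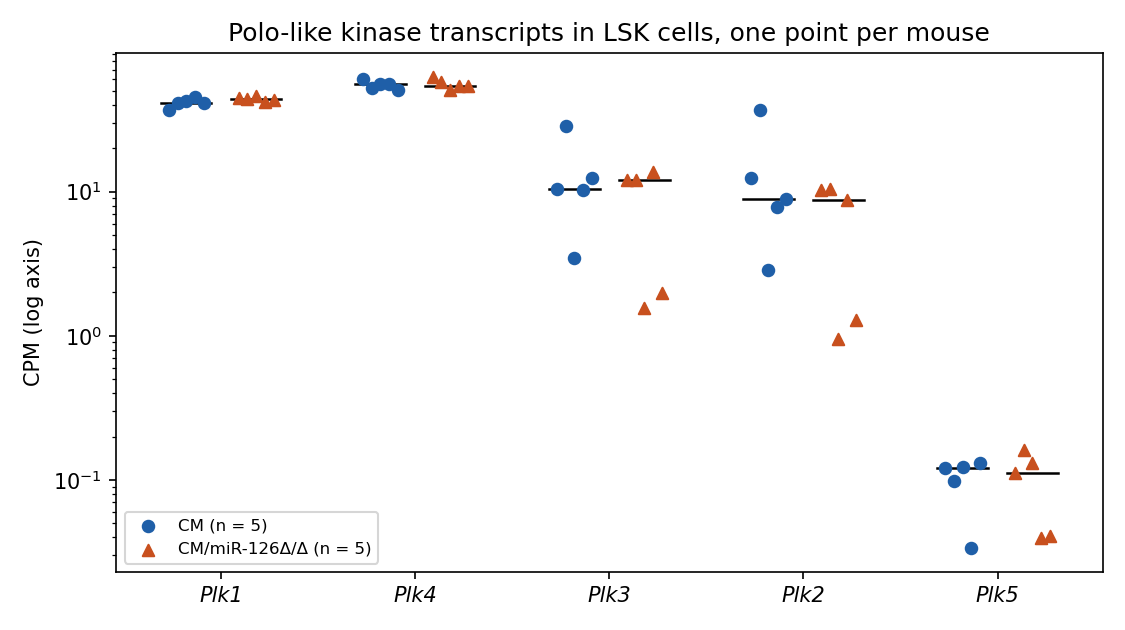
CPM on a log axis for each member, with 1 point per mouse (circles CM, triangles CM/miR-126Δ/Δ, 5 each) and a black bar at the median of each genotype. Plk1 and Plk4 lie in narrow bands between 37.1 and 62.8 CPM, Plk2 and Plk3 spread from 0.958 to 37.0 CPM, and Plk5 rests on 1 to 4 counts per library.

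Plk5 (chr10:80356459-80365489, plus strand) was at the limit of detection. Its counts in mice 1 to 5 were 4, 3, 3, 1 and 4 for CM, and 3, 4, 3, 1 and 1 for CM/miR-126Δ/Δ. These are 15 and 12 counts over all mice of each genotype. A level of 3 counts corresponded to 0.0908 to 0.131 CPM depending on the library, so no test between genotypes was made of Plk5, and a difference was not detectable at this depth.

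Levels of different genes can be compared only per length, so RPKM (reads per kilobase of exon, scaled to library size as CPM is) were computed from the counts. Mean RPKM over the 10 libraries was 19.3 for Plk1, 15.6 for Plk4, 4.48 for Plk3, 3.6 for Plk2 and 0.047 for Plk5. Neighbours kept this order in most libraries but not in all: Plk1 exceeded Plk4 in 9 of 10 by a mean log2 ratio of 0.30 ± 0.15 (SD; exact sign-flip permutation test, adjusted p = 0.00521 over the 4 neighbouring pairs). Plk4 exceeded Plk3 in 10 of 10 by 2.25 ± 1.33 (exact permutation test, adjusted p = 0.00391). Plk3 exceeded Plk2 in 8 of 10 by 0.52 ± 0.36 (exact permutation test, adjusted p = 0.00781), and Plk2 exceeded Plk5 in 10 of 10 by 5.44 ± 1.64 (exact permutation test, adjusted p = 0.00391). Every pair of neighbours therefore differed beyond its spread over libraries, and the smallest p that 10 libraries allow in this test is 0.00195. The test does not cover error in the lengths. In mean CPM Plk4 was above Plk1 (55.5 against 42.7), so their order rests on exon lengths of 3547 and 2214 bases. The sizes depend on the 0.01 added to each RPKM before the log. With 1 added, the mean log2 ratio was 1.81 for Plk2 over Plk5, which rests on 1 to 4 counts of Plk5 per library. It was then 0.33 for Plk3 over Plk2 and 1.85 for Plk4 over Plk3, with the same p-values.

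Set beside genes of like abundance (mean CPM within a factor of 1.5), the stress-inducible members stood near the top in variability and the cell-cycle members did not. The SD of log2 CPM within genotype was 1.52 for Plk2, at percentile 99.5 of 1689 genes whose median SD was 0.181, and only 8 of them varied as much. For Plk3 it was 1.32, at percentile 99.2 of 1744 genes. For Plk1 it was 0.0823, at percentile 16.2 of 2840 genes, and for Plk4 0.107, at percentile 44.5 of 2741 genes. Without both mice numbered 3 and CM/miR-126Δ/Δ mouse 5, a choice made after the values were seen, the SD was 0.79 for Plk2 (percentile 98.7) and 0.545 for Plk3 (percentile 97.2).

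Neither stress-inducible member differed between the genotypes beyond this spread in the fit with genotype alone. Plk2 averaged 13.8 ± 13.4 CPM with the fusion alone and 6.37 ± 4.85 CPM with the deletion (SD, n = 5 each), at a log2 fold change of -1.11 (SE 0.66, edgeR adjusted p = 0.765, exact permutation p = 0.286). The medians, 8.95 and 8.79 CPM, were nearly equal. The direction of the means was the reverse of that in the study's qPCR, and the reason was not tested. Plk3 averaged 13.1 ± 9.36 and 8.23 ± 5.93 CPM, a log2 fold change of -0.66 (SE 0.57, edgeR adjusted p = 0.765, exact permutation p = 0.452), while its median was the higher in CM/miR-126Δ/Δ mice, 12 against 10.4 CPM. Without CM mouse 2 the log2 fold changes were -0.33 for Plk2 and -0.15 for Plk3. Whether the effects of genotype differ between members was not tested.

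In the fit with genotype alone, none of the 4 members tested was called in either direction, and none had genotypes that did not overlap. Over all 18747 genes fitted, 0.0107% had an adjusted p under 0.05 and 6.61% an unadjusted p under 0.05. As shares of all genes fitted, 3.29% were higher and 3.32% lower in CM/miR-126Δ/Δ mice at that unadjusted p. The genotypes did not overlap in 1.1% of genes. With 5 mice against 5, the smallest p of the exact permutation test is 0.00794.

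**Figure D2:**
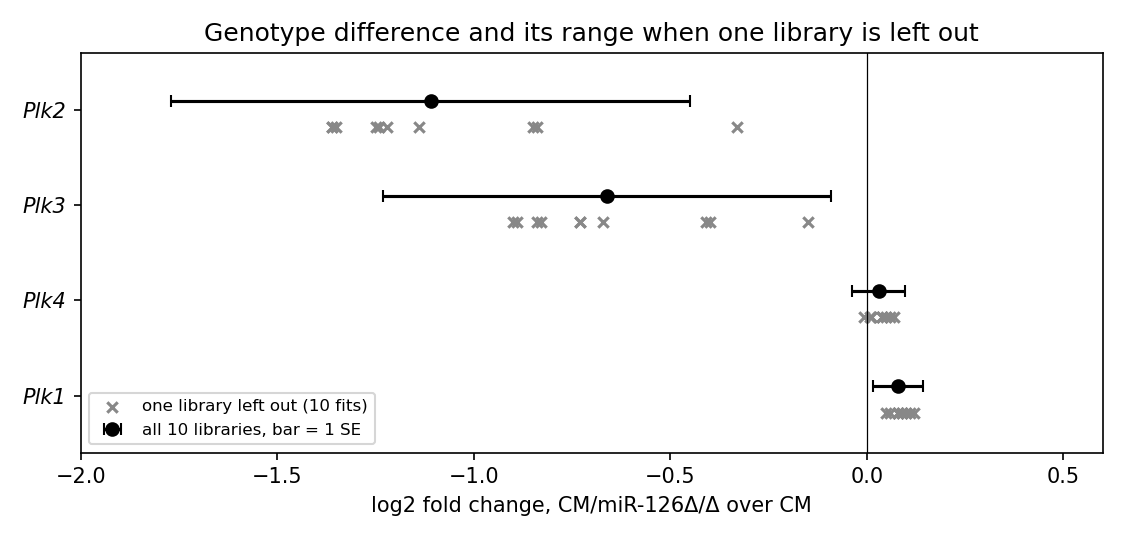
Log2 fold change of CM/miR-126Δ/Δ over CM for Plk1 to Plk4, with all 10 libraries (black points, bars 1 SE) and with each library left out in turn (grey crosses, 10 fits). The crosses run from -1.36 to -0.33 for Plk2 and from -0.90 to -0.15 for Plk3, against 0.05 to 0.12 for Plk1 and -0.008 to 0.07 for Plk4.

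Cut at the 2 largest gaps in sorted log2 CPM, the libraries fell into the same 3 sets for Plk2 and Plk3. CM mouse 2 was alone at the top, 6 libraries were in the middle, and 3 were low, 1 of CM and 2 of CM/miR-126Δ/Δ. The upper and lower gaps were 1.57 and 1.42 for Plk2, and 1.07 and 1.56 for Plk3. The third largest gap, 1.12 for Plk2 and 0.78 for Plk3, lay within the low set, below CM mouse 3. Correlations were computed for all 6 pairs of Plk1 to Plk4, but a test over all 10 libraries is for this reason not read for pairs with Plk2 or Plk3. For Plk2 with Plk3 it gave r = 0.983 (permutation test, adjusted p = 0.00156) and rho = 0.77 (permutation test, adjusted p = 0.0752). Among the 6 middle libraries Plk2 and Plk3 gave weak values (Pearson r = -0.194, exact permutation p = 0.706; Spearman rho = -0.086, exact permutation p = 0.919; adjusted p = 0.943 for r over 6 pairs). These 6 were picked by their Plk2 values after the data were seen and span only 7.8 to 12.4 CPM, so a weak r among them says little about a relation over a wider range. The ratio of Plk2 to Plk3 in RPKM moved only from 0.519 to 1.1 (2.12-fold), while that of Plk2 to Plk1 moved 42.9-fold.

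For the cell-cycle pair, a common course over all 10 libraries was not detected. Plk1 and Plk4 gave Pearson r = -0.172 (permutation p = 0.621, adjusted p = 0.621 over 6 pairs) and Spearman rho = 0.103 (permutation p = 0.784, adjusted p = 0.784). Without the 2 libraries farthest from the median of Plk1, r was 0.747 (permutation p = 0.0368, adjusted p = 0.11), so the value depends on CM mouse 1 and CM/miR-126Δ/Δ mouse 3. The ratio of Plk1 to Plk4 in RPKM stayed between 0.987 and 1.45.

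**Figure D3:**
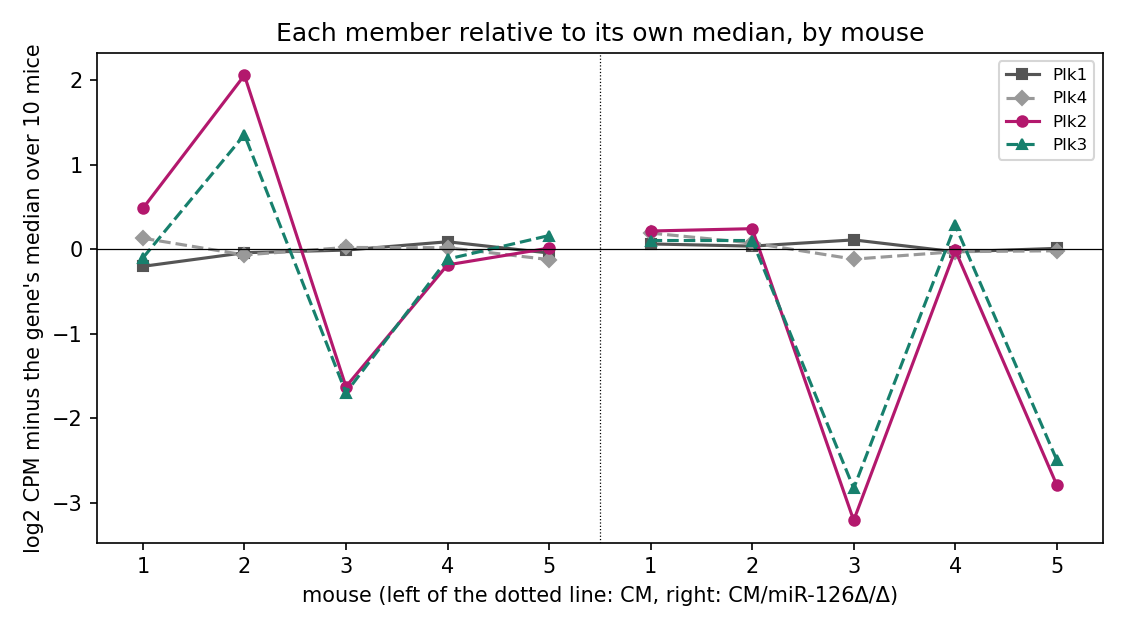
Log2 CPM of Plk1 to Plk4 minus each gene's median over the 10 mice, for CM mice 1 to 5 (left of the dotted line) and CM/miR-126Δ/Δ mice 1 to 5 (right), lines joining mice only to guide the eye. Plk2 and Plk3 leave the zero line together in CM mice 2 and 3 and in CM/miR-126Δ/Δ mice 3 and 5, while Plk1 and Plk4 stay close to it.

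The promoters of Plk2 and Plk3 are shown because these members moved together. Each runs from 250 bases before to 50 after the RefSeq start (GRCm38.p6), Plk2 at chr13:110394794-110395093 on the plus strand and Plk3 at chr4:117133914-117134213 on the minus strand, read 5′ to 3′ along the gene. Capitals mark the cAMP response element (CRE) TGACGTCA and its shorter core TGACG on either strand, where it reads CGTCA on the other.
Plk2: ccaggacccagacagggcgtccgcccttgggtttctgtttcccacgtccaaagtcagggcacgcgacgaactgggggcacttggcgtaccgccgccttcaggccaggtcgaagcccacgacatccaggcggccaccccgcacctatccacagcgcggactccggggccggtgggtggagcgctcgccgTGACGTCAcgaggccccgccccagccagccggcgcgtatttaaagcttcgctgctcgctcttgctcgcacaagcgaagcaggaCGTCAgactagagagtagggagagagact
Plk3: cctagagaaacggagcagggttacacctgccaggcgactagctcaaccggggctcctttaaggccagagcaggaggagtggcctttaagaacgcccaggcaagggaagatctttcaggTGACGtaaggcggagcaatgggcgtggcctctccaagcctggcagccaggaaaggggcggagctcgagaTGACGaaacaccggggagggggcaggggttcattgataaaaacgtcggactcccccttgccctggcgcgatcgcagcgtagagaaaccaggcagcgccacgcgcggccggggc
Plk2 held a CRE at -62 to -55 from the start, as 1.79% of 32851 promoters did, and this CRE overlaps the core on each strand. The core alone, looked for after the sequences were seen, occurred at -132 to -128 and -63 to -59 in Plk3, at 22 to 26 in Plk2 besides the CRE, at -30 to -26 in Plk4, and in 20.8% of all promoters. Plk1 held a cell cycle homology region (CHR) TTTGAA at 31 to 36 (17.9% of promoters) and CCAAT at -14 to -10 (37.4%), and Plk5 held CCAAT. The AP-1 site TGAGTCA (5.2% of promoters), the E2F site GGCGGGAA (2.19%) and the CArG box (1.63%) were in none of the 5 windows on either strand.

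Genes whose levels followed Plk2 and Plk3 most closely were mostly genes induced by signals. Over 10 libraries and 13396 genes with a mean of at least 10 counts, those most like Plk2 in log2 CPM were Sik1 (r = 0.988), a kinase induced through cAMP, Plk3 (r = 0.983), the clock gene Per1 (r = 0.981), the nuclear receptor gene Nr4a2 (r = 0.98) and Spry1 (r = 0.98), a feedback inhibitor of growth factor signalling. For Plk3 they were Ier2 (r = 0.993), Sik1 (r = 0.989), the small nucleolar RNA Snora31 (r = 0.989), Ppp1r15a (r = 0.984), which ends the stress block on translation, and Plk2 (r = 0.983). Without CM mouse 2 these values lay between 0.972 and 0.983 for Plk2 and between 0.981 and 0.994 for Plk3. Over the 6 middle libraries, where Plk2 and Plk3 themselves moved little, they ran from -0.194 to 0.915 and from -0.194 to 0.785. They are descriptions over libraries that share each mouse's cells, and genes are not independent of one another.

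The genes most like Plk1 and Plk4 belonged to several kinds, and some had few counts. For Plk1 they were Acy3 (r = 0.954), Kcnn1 (r = 0.913), Slit1 (r = 0.908), Cep57l1 (r = 0.887) and Brdt (r = 0.879), of which Cep57l1 had 28.8 to 34.8 CPM and the others at most 5.9. For Plk4 they were Mcm8 (r = 0.93), which acts in DNA repair, Zfp985 (r = 0.882), Msl3 (r = 0.874), the small nucleolar RNA Snord70 (r = 0.86) and Ints10 (r = 0.852).

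Immediate early genes, the transcription factor and feedback genes that cells induce within minutes of a signal, were read as a list of 30. With Plk2, 29 of 30 had r over 0.8 (median 0.942), against 3.02% of all genes, and with Plk3 29 of 30 (median 0.95), against 3.35%. Over the 6 middle libraries the medians were -0.348 and 0.501. With Plk1 the median was -0.368 and with Plk4 0.171, and no gene of the list passed 0.8. Fos, which codes for a subunit of AP-1, had 725, 1220, 225, 616 and 649 CPM in CM mice 1 to 5, and 369, 406, 17.1, 464 and 19.4 CPM in CM/miR-126Δ/Δ mice 1 to 5. It was highest and lowest in the same libraries as Plk2, with CM mouse 2 at the top and CM/miR-126Δ/Δ mice 3 and 5 at the bottom.

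**Figure D4:**
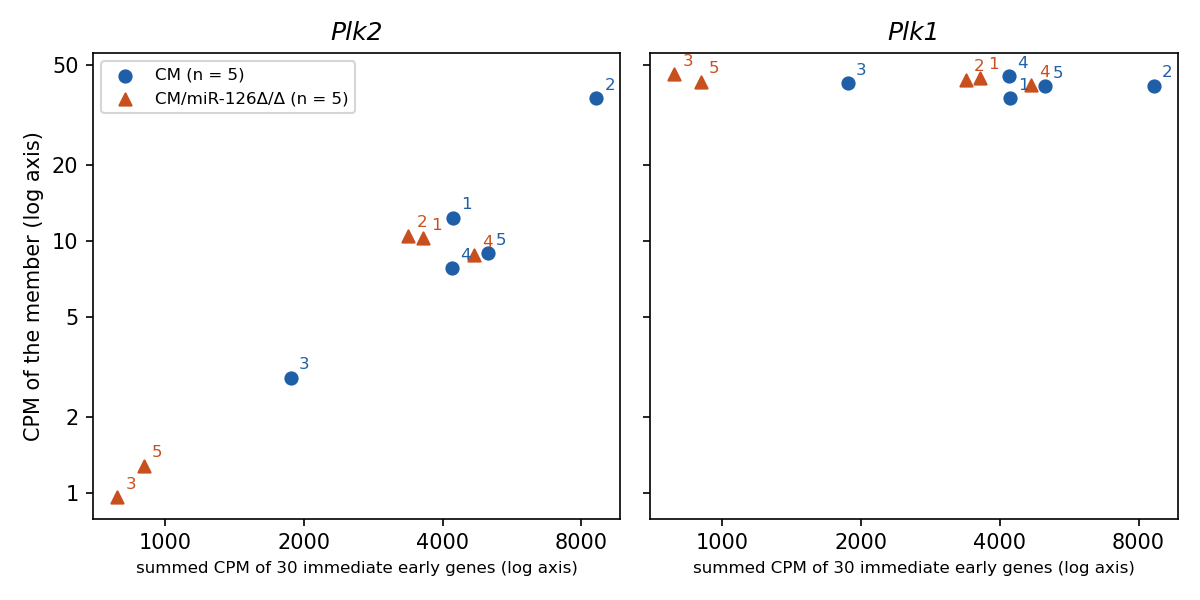
CPM of Plk2 (left) and Plk1 (right) against the summed CPM of 30 immediate early genes, both on log axes, with 1 numbered point per mouse (circles CM, triangles CM/miR-126Δ/Δ). The sum runs from 786 CPM in CM/miR-126Δ/Δ mouse 3 to 8620 CPM in CM mouse 2, with Plk2 lowest and highest at the same ends, while Plk1 stays between 37.1 and 46.1 CPM.

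Between the genotypes, 5 of the 30 immediate early genes were lower in CM/miR-126Δ/Δ mice at an unadjusted edgeR p under 0.05 and 0 were higher. Of all 18747 genes in the same fit, 623 (3.32%) were lower and 616 (3.29%) higher. None of the list passed after adjustment over all genes, in the edgeR fit with genotype alone or with DESeq2. The median log2 fold change of the list was -0.62, with 29 of 30 genes below 0, against -0.01 and 9865 of 18747 over all genes. Without CM mouse 2 the list median was -0.31, with 23 of 30 below 0. The 5 genes were Klf4 (log2 fold change -1.16, edgeR adjusted p = 0.69), Ier5 (-0.49, adjusted p = 0.746), Klf6 (-0.74, adjusted p = 0.746), Klf2 (-1.33, adjusted p = 0.75) and Rgs1 (-0.95, adjusted p = 0.754), where the Klf genes code for zinc finger transcription factors and Rgs1 for a brake on G protein signalling. Fos was at -1.43 (edgeR adjusted p = 0.764) and Egr1, another induced zinc finger factor, at -0.89 (edgeR adjusted p = 0.808). The count of 5 fell to 1 without CM mouse 2, CM/miR-126Δ/Δ mouse 3 or CM/miR-126Δ/Δ mouse 5 and to 3 without CM mouse 5, and it was 10 without CM mouse 3 and 12 without CM/miR-126Δ/Δ mouse 4. Over all genes fitted, 612 were lower without CM mouse 3 and 798 without CM/miR-126Δ/Δ mouse 4. With the replicate numbers as a block, which no label says pair the mice, the list count was 17 lower and 0 higher. Over all 18747 genes that fit gave 866 lower and 800 higher, and none of the list passed adjustment.

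The list of 25 p53 target genes, among which Plk2 and Plk3 are often counted, had values of r spread around a low median, 0.176 with Plk2 and 0.16 with Plk3, and 1 of 25 passed 0.8 with each. In this list 1 gene was higher (Trp53inp1, 0.18 on the log2 scale, edgeR adjusted p = 0.746) and 1 lower (Ddit4, -0.36, edgeR adjusted p = 0.746) at an unadjusted p under 0.05, with a list median of -0.03. Over all genes fitted, 3.29% were higher and 3.32% lower at that p, so 1 of 25 in each direction is near the general share. Cdkn1a, the p53-induced inhibitor of cyclin-dependent kinases, ranged from 7.31 CPM in CM/miR-126Δ/Δ mouse 3 to 36.0 CPM in CM mouse 2 (log2 fold change -0.65, edgeR adjusted p = 0.764). Mdm2, which limits p53, ranged only from 59.3 to 76.7 CPM (-0.03, edgeR adjusted p = 0.919).

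The 30 partners of Plk1 in mitosis had a median log2 fold change of 0.04, with 22 genes above 0 and 8 below. Without CM/miR-126Δ/Δ mouse 1 it was 0.00, with 16 above and 14 below. At an unadjusted p under 0.05, Ect2, which positions the cleavage furrow, was higher (0.20, edgeR adjusted p = 0.746) and Pkmyt1, an inhibitory kinase of Cdk1, lower (-0.33, edgeR adjusted p = 0.661). That is 1 of 30 in each direction, near the 3.29% higher and 3.32% lower over all genes fitted. Aurka, which activates Plk1, averaged 40.4 ± 1.57 CPM among CM and 40.5 ± 2.95 CPM among CM/miR-126Δ/Δ mice (SD, n = 5 each), and Ccnb1, the mitotic cyclin, 18.5 ± 0.645 and 19.7 ± 4.53 CPM. The median r of this list with Plk1 was 0.364, against -0.041 over all genes, and 1 of 30 passed 0.8. Over the 6 middle libraries of Plk2 the list median was 0.727, and the median over all genes was not taken there.

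The 20 partners of Plk4 in centriole duplication also had a median log2 fold change of 0.04. Rttn, a centriole assembly gene, averaged 57.0 ± 4.2 CPM among CM and 67.2 ± 3.48 CPM among CM/miR-126Δ/Δ mice (SD, n = 5 each; log2 fold change 0.24, edgeR adjusted p = 0.514), and Cdk5rap2, a scaffold of the centrosome, was at 0.13 (edgeR adjusted p = 0.746). These 2 genes were higher at an unadjusted p under 0.05 and 0 were lower, against 3.29% higher and 3.32% lower over all genes fitted. Stil and Sass6, through which Plk4 starts the new centriole, were each at 0.09 (edgeR adjusted p = 0.765 for both). The median r of the list with Plk4 was 0.25, against 0.02 over all genes, and 0 of 20 passed 0.8.

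Other measures differed between the same libraries. Total counts ran from 23649233 to 33202086, and the 3 low libraries for Plk2 were among the 4 shallowest. All 12 LSK marker genes had at least 1 CPM in every library, with a sum of 3790 to 4430 CPM among CM and 3700 to 4410 CPM among CM/miR-126Δ/Δ mice. The 6 megakaryocyte markers, 4 of them at 1 CPM or more in every library, summed to 148 to 224 CPM among CM and 113 to 198 CPM among CM/miR-126Δ/Δ mice, and the 6 B cell markers, 1 of them at that level, to 26.2 to 36.4 and 23.7 to 36.2 CPM. Both sums were lowest in the 3 libraries lowest for Plk2. As a set, these 3 were not the lowest libraries for the T and NK cell, granulocyte and monocyte, erythroid, mast cell and basophil, or endothelial sums. CM/miR-126Δ/Δ mouse 3 did have the lowest erythroid sum, at 99.1 CPM. Nkg7, at 35.3 to 65.7 CPM, made up most of the T and NK cell sum. Cd3e, Cd3g and Cd8a of that list were lowest in CM/miR-126Δ/Δ mice 3 and 5, at 0.174 CPM or less, but not in CM mouse 3. Cd4, Nkg7 and Klrb1c were not lowest in these mice. The erythroid sum was highest in CM mouse 3, at 170 CPM. Cd79b, the B cell marker at 1 CPM or more in every library, had 23.7 CPM in CM mouse 3. It had 23.2 CPM in CM/miR-126Δ/Δ mice 3 and 5, against 20.3 to 27.6 CPM in the others. No B cell or megakaryocyte marker was at 0 in all libraries. RNA concentration was lowest in CM/miR-126Δ/Δ mice 3 and 5 (16.1 and 18.2 ng/ul, against 20.0 to 40.9 ng/ul in the others), but 26.5 ng/ul in CM mouse 3. Rn45s, the ribosomal RNA precursor, took 22.6% and 18.6% of counts in CM/miR-126Δ/Δ mice 3 and 5, the highest values, and 14.8% in CM mouse 3, the lowest of all. The part of these differences in the values of Plk2 and Plk3 was not tested.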

How the data were processed

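RNA of sorted LSK cells from 5 CM and 5 CM/miR-126Δ/Δ mice was analysed, 1 library per mouse, grouped by the labels. Per the study's methods, the authors depleted ribosomal RNA, read 51 bp single ends, trimmed (Trimmomatic, FASTP), aligned to mm10 (Tophat) and counted RefSeq genes (HTSeq; the submitters' processing notes give 0.6.1p1). Whether counting used strand is not given in the sources used here, so overlapping and antisense genes can share reads. The deposited counts are whole reads per gene, not normalized. The authors' other table, counts divided by a constant per library, was not used.

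From the counts, 18747 of 25078 genes with at least 1 count were fitted by edgeR 4.0.16 (R 4.3.3; TMM, quasi-likelihood F-test in its earlier form, genotype only, Benjamini-Hochberg). CPM and RPKM used TMM library sizes, log2 CPM a prior count of 2, and log2 RPKM 0.01. Exact tests were two-sided, and the tests over 10 libraries drew 100000 permutations (scipy 1.17.1). Count tests were checked on simulated data. Libraries held 23649233 to 33202086 counts, without molecular identifiers, so limits cover counting error only. P-values measure the spread between these mice.

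Named genes were the 5 members, the deleted microRNA and its host, the 5 genes most like each member, up to 6 per list with an unadjusted p under 0.05, and Fos, Egr1, Cdkn1a, Mdm2, Aurka, Ccnb1, Stil and Sass6. Members and lists were chosen with earlier results of these data known. Sequences are from RefSeq (GRCm38.p6; all 5 members matched) and GENCODE M1, whose coordinates were not used. Alternatives were RLE factors, DESeq2 1.42.0, 2 filters, the edgeR 4 form, robust dispersions, a replicate block, each library left out, other pseudocounts and no factors.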

Additional observations from a re-analysis of the deposited data

Results flagged for a closer look

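Plk2 in CM mouse 2, at 37.0 CPM, stood apart from the other 4 CM mice: its gap to the next value was 0.721 of the range of the group, over the critical value of 0.71 for 5 samples (Dixon). It was the only one of 24 sets of 5 values examined (Plk1 to Plk4, Egfl7, the list sums, total counts, RNA concentration and Rn45s in each genotype) to do so. Chance gives about 1 in 20, or 1.2 of the 24 sets. The values of Plk2 were compared as CPM, not as log2 CPM. In the same mouse Plk3 was at 28.6 CPM and Fos at 1220 CPM, each also the highest of the 10 libraries.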

How the results depend on the processing

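None of the 88 values of the genotype effect on Plk1 to Plk4 under 22 other fits each had an adjusted p under 0.05 (lowest 0.115). Leaving out each library in turn gave log2 fold changes of 0.05 to 0.12 for Plk1, -1.36 to -0.33 for Plk2, -0.90 to -0.15 for Plk3 and -0.008 to 0.07 for Plk4. The effect on Plk4 turned to -0.008 without CM/miR-126Δ/Δ mouse 1. Leaving out 1 library also moved the genes at an unadjusted p under 0.05 from 2 to between 1 and 3 for the mitosis list (1 without CM/miR-126Δ/Δ mouse 1 or 2), from 2 to between 1 and 5 for the centriole list (5 without CM mouse 3, 4 without CM/miR-126Δ/Δ mouse 4, 1 without CM mouse 2 or CM/miR-126Δ/Δ mouse 2 or 5), from 5 to between 1 and 12 for the immediate early list, and from 2 to between 0 and 4 for the p53 list (0 without CM/miR-126Δ/Δ mouse 2, 4 without CM/miR-126Δ/Δ mouse 4, 1 without CM mouse 1, 2 or 4 or CM/miR-126Δ/Δ mouse 1 or 3). The immediate early count of 5 was 1 with DESeq2 or robust dispersions and 3 with either filter on low values. The order of levels held under every alternative tried, with log2 ratios of 0.28 to 0.34, 2.01 to 2.47, 0.48 to 0.60 and 5.17 to 5.79 down the order when 1 library was left out. With a pseudocount of 1 the ratios down the order were 0.29, 1.85, 0.33 and 1.81.

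The replicate numbers were also tried as a block. Same-numbered libraries deviated together with correlations of -0.004 to 0.43, over 0.1 in 4 of 5. Their mean was 0.212, against -0.054 for libraries of the 2 genotypes with unlike numbers. Not every library was closest to its own number, so the numbers were not taken to pair the mice. Same-numbered libraries also carry neighbouring submission numbers in the labels, which no label calls a batch. With the replicate block, 20 genes had an adjusted p under 0.05 in place of 2 (45 with DESeq2 and no block), and the immediate early count was 17. All 17 were lower. At the same unadjusted edgeR p under 0.05, 866 of all 18747 genes were lower and 800 higher in this fit. Plk2 was at -1.14 (unadjusted edgeR p of 0.00559, adjusted 0.28) and Plk3 at -0.79 (unadjusted edgeR p of 0.0417, adjusted 0.529). Leaving out each number in turn from the block, added after the data were seen, gave -1.51 to -0.79 for Plk2 (adjusted p at least 0.115), -1.13 to -0.38 for Plk3, an immediate early count of 11 to 27 (2 past adjustment without number 4) and 0 to 31 genes past adjustment (0 without number 1, 2 without number 5). The mitosis list's median was then -0.03, with 20 of 30 below 0, without number 1, and Plk4 was at -0.005 without number 2.

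For the correlations, Plk1 with Plk4 was 0.141 without library factors, 0.747 without the 2 libraries farthest from the median and 0.002 over the 6 middle libraries of Plk2. Without the 2 farthest libraries Plk2 with Plk3 was 0.946 (permutation, adjusted p = 0.11), Plk2 with Plk4 -0.123 and Plk3 with Plk4 -0.246. Over the 6 middle libraries, chosen after the data were seen, Plk2 with Plk3 was -0.194, Plk1 with Plk3 0.147 and Plk3 with Plk4 -0.405. The SD of Plk2 and Plk3 without the 3 low libraries was 0.79 and 0.545, and 1.41 and 1.28 without CM mouse 2. The cause of these shifts was not tested. Depth limits Plk5 and Mir126a most.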
